A study of Mus musculus with 8 samples.

Results

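The set named abundant long noncoding RNAs of neurons holds 9 genes: Malat1, Neat1, Meg3, Rian, Mirg, Miat, Snhg11, Peg13 and Kcnq1ot1. They were read by gene symbol from a table of 54532 genes measured in substantia nigra of male C57BL/6 mice. The substantia nigra is a midbrain region whose dopamine neurons die in Parkinson's disease. There were 8 RNA-seq libraries in 4 groups of 2: controls labelled WT, mice given an adeno-associated virus that carries α-synuclein (AAV-α-synuclein, here the α-synuclein group), mice given α-ketoglutarate (AKG, a metabolite of the TCA cycle fed in the diet according to the series title), and mice that had both (AAV-α-synuclein+AKG, here the combined group). No age, vector promoter, dose or time is stated in the labels, nor whether an empty vector was used in the control and AKG mice. Since the labels are also silent on whether both libraries of a group are from different animals, p-values measure only the spread between these samples, which may be technical. All 9 genes were found with 1 row each, and 8 of them passed the filter for testing, a mean of at least 1 FPKM (fragments scaled by gene length and library depth) over the 8 libraries. Kcnq1ot1 did not pass and is described by its values. The measurement is of bulk tissue, so whether an RNA came from neurons was not measured, and fewer cells of a type cannot be told apart from less RNA per cell.

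Long noncoding RNAs act as RNA, without a protein product. Malat1 lies in nuclear speckles, where splicing factors gather, and its main 3' end is made by RNase P cleavage and protected by a triple helix instead of a poly(A) tail. Neat1 is the scaffold of paraspeckles, nuclear bodies that hold back proteins and RNAs. Meg3, Rian and Mirg are transcribed in the same direction from the maternal copy of the imprinted Dlk1-Dio3 domain, and Rian and Mirg carry small nucleolar RNAs and microRNAs inside them. Peg13 and Kcnq1ot1 are transcribed from the paternal copy of their domains, Peg13 from within an intron of Trappc9 and Kcnq1ot1 antisense to Kcnq1, where it silences neighbouring genes in cis. Miat, also called Gomafu, is a nuclear RNA of neurons that binds splicing regulators, and Snhg11 is a host gene of small nucleolar RNAs that is strong in brain.

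The libraries held 16544190.0 to 19125423 reads assigned to genes, and the 9 RNAs together took 0.194% to 0.341% of them. Control library 1 stood apart: its mean Spearman correlation with the other libraries across genes was 0.926, against at least 0.971 for each of the other 7. Summed over 5 choroid plexus markers, control library 1 had 8893 FPKM and control library 2 had 447, while the other 6 libraries had 51.8 to 4926. Summed over 8 general neuron markers, the same libraries had 848, 1240.5, and 1079 to 1196 FPKM. The 4 dopamine neuron markers (Th, Slc6a3, Slc18a2 and Ddc) summed to 96.9 and 95.4 FPKM in the control libraries and to 22.3 to 46.4 in the other 6. The sums were lowest in the AKG group, at 26.1 and 22.3. All 4 genes lay below both controls in each treated group. Slc6a3 fell furthest, from 24.1 and 28.5 FPKM in control to 0.801 and 0.615 in the AKG group. These genes thus had reads in all libraries but not at like levels. No marker of the 8 cell types examined was at 0 in any library.

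The RNAs differed widely in level per length. Peg13 (chromosome 15, 72805600 to 72810324, minus strand, GRCm38) averaged 89.0 FPKM over the 8 libraries, Snhg11 (chromosome 2, 158375638 to 158386145, plus strand) 80.0, Meg3 (chromosome 12, 109541001 to 109571726, plus strand) 47.8 and Rian (chromosome 12, 109603940 to 109661716, plus strand) 25.8. Malat1 (chromosome 19, 5795690 to 5802672, minus strand) averaged 12.8 FPKM, Miat (chromosome 5, 112213228 to 112229395, minus strand) 6.06, Neat1 (chromosome 19, 5824708 to 5845478, minus strand) 4.02 and Mirg (chromosome 12, 109729764 to 109749460, plus strand) 1.51. Kcnq1ot1 (chromosome 7, 143203458 to 143296549, minus strand) averaged 0.0713 FPKM over a gene model of 93092 bases. In this order Snhg11 exceeded Meg3, Meg3 exceeded Rian, Rian exceeded Malat1 and Malat1 exceeded Miat in 8 of 8 libraries. Peg13 exceeded Snhg11 in only 5 and Miat exceeded Neat1 in 6, so those neighbours were not separated. By mean FPKM Peg13 ranked 521 and Malat1 4108 among all genes of the table. The libraries came from an mRNA-seq kit and the main 3' end of Malat1 has no poly(A) tail. Its level and its place in this order may thus be read too low, which was not tested. The deposited biotypes are lincRNA for Malat1, Neat1, Meg3, Mirg and Miat, processed transcript for Rian, sense intronic for Peg13, antisense for Kcnq1ot1 and protein-coding for Snhg11.

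**Figure D1:**
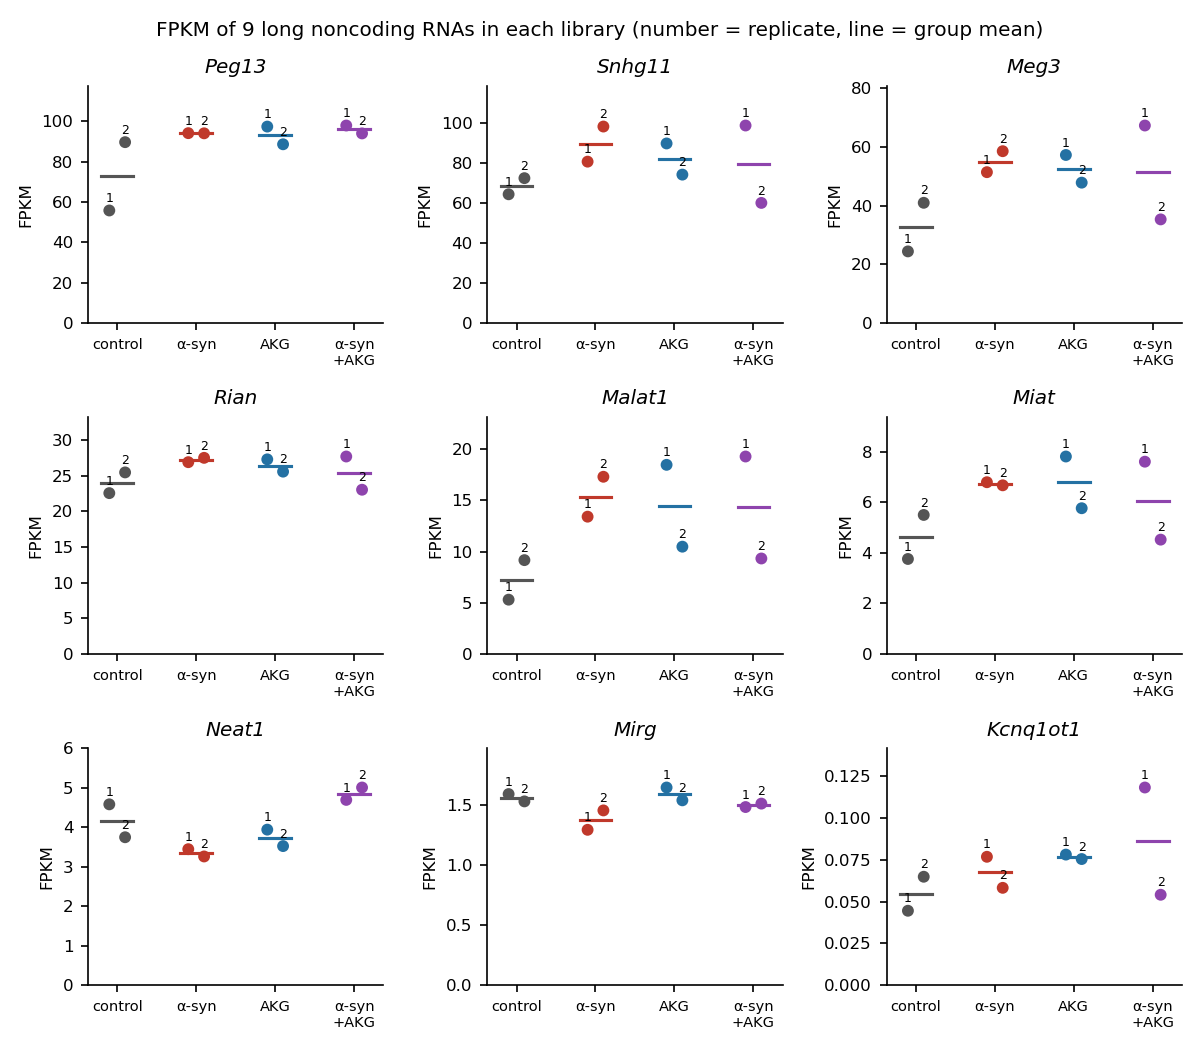
FPKM (vertical axis, linear, from 0) of each RNA in the 4 groups; each point is a library marked with its replicate number and the line is the mean of the group's 2 libraries. Control library 1 is the lowest point for 6 of the 9 RNAs, and combined library 1 is the highest for 6.

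Malat1, the speckle RNA, ranged most. It stood at 5.31 and 9.17 FPKM in control libraries 1 and 2, at 13.4 and 17.3 in the α-synuclein group, at 18.5 and 10.5 in the AKG group and at 19.3 and 9.33 in the combined group. The control libraries were the lowest of the 8, but combined library 2 and AKG library 2 lay close above control library 2. Its highest value was 3.63 times its lowest, and 2.10 times when control library 1 was left out. These values rest on 716 to 2617 reads per library. Against control at 7.24 ± 2.73 FPKM (mean ± SD, n = 2 libraries), the α-synuclein group at 15.4 ± 2.76 differed by a log2 of 1.02 ± 0.40 (the estimate with its standard error, from log2 values of FPKM + 1, a scale on which differences of low genes come out too small). The adjusted p was 0.294 (limma, two-sided, Benjamini-Hochberg over 13716 genes). The corresponding difference was 0.90 ± 0.40 for AKG (limma adjusted p = 0.289) and 0.85 ± 0.40 for both treatments (0.371). With control library 1 left out these 3 differences were 0.68, 0.56 and 0.51, and without combined library 2 the last was 1.34.

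Within the AKG group the Malat1 libraries were 0.76 apart on the log2 scale, a gap exceeded by 1.83% of the tested genes, and within the combined group 0.97 apart, exceeded by 1.37%. The spread between libraries of 1 treatment was thus of the size of the differences between groups. The gene models of Malat1, Neat1 and Miat contain 10 shorter annotated rows, and none of these received a read in any library. How reads over overlapping rows were counted is not given, so these zeros do not show whether those RNAs were absent.

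Meg3, a maternally expressed RNA known for restraining growth, followed a course like that of Malat1. It stood at 24.4 and 40.9 FPKM in control, 51.4 and 58.5 in the α-synuclein group, 57.2 and 47.8 in the AKG group and 67.3 and 35.3 in the combined group. All 4 libraries with a single treatment exceeded both controls, and the combined libraries lay on both sides of control library 2. The α-synuclein group at 54.9 ± 5.05 FPKM differed from control at 32.7 ± 11.7 by 0.77 ± 0.34, the AKG group at 52.5 ± 6.66 by 0.71 ± 0.34 and the combined group at 51.3 ± 22.6 by 0.61 ± 0.34, with limma adjusted p-values of 0.297, 0.308 and 0.405. Without control library 1 the differences were 0.41, 0.35 and 0.25, and after removal of the trend of each library with gene length they were 0.36, 0.30 and 0.23.

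Rian and Mirg, on the same strand downstream of Meg3, had far smaller ranges. Rian, whose gene holds small nucleolar RNAs of the C/D class, stood at 22.6 and 25.5 FPKM in control, 26.9 and 27.5 in the α-synuclein group, 27.3 and 25.6 in the AKG group and 27.7 and 23.0 in the combined group. Its highest value was 1.23 times its lowest, against 2.76 times for Meg3. The ratio of Meg3 to Rian FPKM was 1.08 in control library 1, 2.43 in combined library 1, and at least 1.53 in the other libraries. Mirg, whose transcript contains a microRNA cluster, stood at 1.59 and 1.53 FPKM in control, 1.29 and 1.45 in the α-synuclein group, 1.64 and 1.54 in the AKG group and 1.48 and 1.51 in the combined group. Its α-synuclein libraries were the lowest of the 8, with a difference from control of -0.11 ± 0.12 (limma adjusted p = 0.586), and only 174 to 224 reads stood behind each value. The 95% intervals of the differences from control were -0.12 to 0.47 for Rian and -0.39 to 0.17 for Mirg in the α-synuclein group. The combined minus control difference of Rian was 0.073 with all libraries and -0.011 without control library 1. After removal of the length trend the differences from control in the α-synuclein, AKG and combined groups were -0.24, -0.28 and -0.31 for Rian, opposite in sign to those with the trend, and -0.28, -0.15 and -0.19 for Mirg. On the log2(FPKM + 1) scale 96.6% of all tested genes varied more than Mirg across the 8 libraries, 76.2% more than Rian and 5.04% more than Meg3. The added 1 shrinks deviations at the low level of Mirg. Its highest value was 1.27 times its lowest, a wider range than that of Rian.

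**Figure D2:**
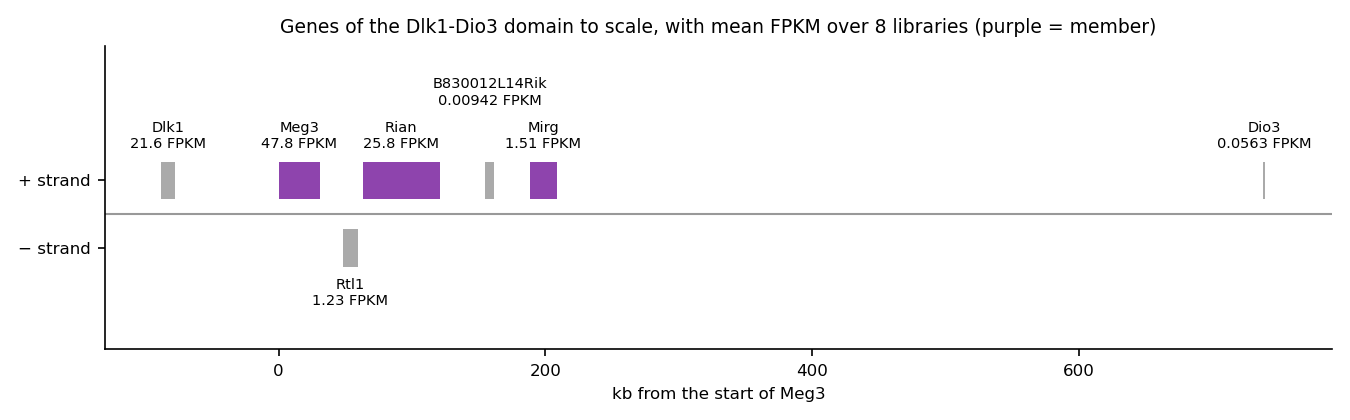
Genes of the Dlk1-Dio3 domain drawn to scale by distance from the start of Meg3 (horizontal axis, kb), plus strand above and minus strand below the line, each with its mean FPKM over the 8 libraries. Meg3, Rian and Mirg lie in a row on the plus strand, with 32.2 kb between Meg3 and Rian and 68.0 kb between Rian and Mirg.

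Sequence just before the annotated starts is shown for Meg3 and Rian, neighbours of the same strand with unlike ranges, and for Malat1, the RNA with the widest range (RefSeq, GRCm38.p6, 250 bases before to 50 after each start). Capitals mark the motifs searched on both strands: the cAMP response element TGACGTCA, the TATA box TATAAA and the CCAAT box CCAAT.
Meg3, chr12:109540746-109541045, plus strand: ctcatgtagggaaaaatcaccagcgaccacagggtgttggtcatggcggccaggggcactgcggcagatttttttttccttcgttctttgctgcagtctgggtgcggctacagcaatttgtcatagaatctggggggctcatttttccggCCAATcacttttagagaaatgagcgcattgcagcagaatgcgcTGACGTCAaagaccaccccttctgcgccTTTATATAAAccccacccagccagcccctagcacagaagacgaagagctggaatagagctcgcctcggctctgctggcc
Rian, chr12:109603695-109603994, plus strand: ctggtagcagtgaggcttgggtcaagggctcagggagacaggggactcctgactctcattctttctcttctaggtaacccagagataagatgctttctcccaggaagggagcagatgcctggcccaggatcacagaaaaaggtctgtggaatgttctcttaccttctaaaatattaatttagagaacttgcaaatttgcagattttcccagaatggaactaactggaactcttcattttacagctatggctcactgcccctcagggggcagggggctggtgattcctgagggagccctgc
Malat1, chr19:5802623-5802922, minus strand: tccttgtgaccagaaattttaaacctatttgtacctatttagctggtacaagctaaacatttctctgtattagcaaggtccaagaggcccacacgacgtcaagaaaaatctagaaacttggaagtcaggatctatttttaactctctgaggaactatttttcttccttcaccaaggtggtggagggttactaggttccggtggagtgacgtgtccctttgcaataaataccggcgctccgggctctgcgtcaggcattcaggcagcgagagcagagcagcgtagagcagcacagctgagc
The Meg3 window held all 3 motifs, and its TATA box reads on both strands with overlapping letters. RefSeq gives Meg3 another start, whose window (chr12:109545148-109545447, plus strand, not printed) held none of them and has 1 CpG. Of 32851 windows of this length, 1.79% held TGACGTCA, 13.6% TATAAA and 37.4% CCAAT. The Rian and Malat1 windows held none of these letters. The Rian window has 0 CpG dinucleotides, the printed Meg3 window 13 and the Malat1 window 10, against a median of 7 over all windows. A match describes the letters only.

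The other genes of the Dlk1-Dio3 domain were read beside them. Dlk1, a paternally expressed membrane protein of the Notch ligand family, stood at 20.4 and 19.5 FPKM in control, 23.7 and 25.1 in the α-synuclein group, 26.9 and 14.8 in the AKG group and 27.1 and 14.8 in the combined group. Like Meg3 and Malat1, it was lower in replicate 2 than in replicate 1 of the AKG and combined groups. Rtl1, a retrotransposon-derived gene on the opposite strand, ranged from 0.827 to 1.56 FPKM, and Dio3, the enzyme that inactivates thyroid hormone, from 0 to 0.134. Of 8 domain genes listed, 6 were tested and 0 passed in any of the 5 comparisons. Against control, 5 lay higher in the α-synuclein group with a median difference of 0.13, while the median over all tested genes was -0.0087. With control library 1 set aside, 3 of 6 lay higher and the median was -0.0097. Wdr25 had the lowest of the 6 differences at -0.19 ± 0.11 and Wars, a tRNA synthetase gene, the next at 0.052 ± 0.15, while Dlk1 at 0.28 ± 0.33 and Rtl1 at 0.25 ± 0.22 had the highest.

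The small RNA rows inside these transcripts had few reads. Rian contains 13 small nucleolar RNA rows, 4 of them with a read and with 133 reads in all libraries together, most of them in Gm23600 (55) and DQ267102 (50), and 4 microRNA rows with 41 reads. Mirg contains 14 microRNA rows on its strand, 6 of them with a read and with 52 reads together. Mir3072 had 19 of those and Mir453 had 17, and Mir1188 had the most of the microRNA rows in Rian, 23. The 2 microRNA rows in Meg3 (Mir770 and Mir1906-1) were at 0 in all 8 libraries. At these depths no comparison between groups was made. The mature sequences of the Mir3072, Mir453 and Mir1188 rows, the microRNA rows with the most reads, are given with the seed (bases 2 to 8) in capitals, and miR-496a-5p, also from Mirg, is added because it shares its seed with miR-453.
miR-3072-5p: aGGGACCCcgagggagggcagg
miR-3072-3p: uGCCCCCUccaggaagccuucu
miR-453: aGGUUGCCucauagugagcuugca
miR-496a-5p: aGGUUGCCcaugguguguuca
miR-1188-5p: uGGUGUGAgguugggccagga
miR-1188-3p: uCCGAGGCuccccaccacacccugc
RefSeq places 35 mature microRNAs inside Meg3, Rian and Mirg, and these were the only 2 with the same seed. The sequences describe what the host transcripts carry, not the level of the mature microRNAs, which was not measured.

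Miat and Snhg11 had smaller ranges than Meg3. Miat stood at 3.76 and 5.50 FPKM in control, 6.80 and 6.67 in the α-synuclein group, 7.81 and 5.77 in the AKG group and 7.61 and 4.53 in the combined group. The single-treatment libraries exceeded both controls, and combined library 2 lay between the controls. Its 3 differences from control, in the order α-synuclein, AKG and combined, were 0.48 ± 0.25, 0.47 ± 0.25 and 0.31 ± 0.25 (limma adjusted p = 0.331, 0.334 and 0.527). Leaving out control library 1 made them 0.25, 0.25 and 0.085, and removing the length trend 0.24, 0.24 and 0.094.

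Snhg11 stood at 64.5 and 72.6 FPKM in control, 80.9 and 98.4 in the α-synuclein group, 90.0 and 74.4 in the AKG group and 99.0 and 60.2 in the combined group. Its lowest and its highest library were thus both from the combined group. The differences from control were 0.38 ± 0.24, 0.25 ± 0.24 and 0.17 ± 0.24 (limma adjusted p = 0.388, 0.560 and 0.716). They were 0.29, 0.17 and 0.088 without control library 1, and the last was -0.023 after removal of the length trend. The small nucleolar RNA row Gm25129 inside Snhg11 held 140 reads in all libraries together, and Snhg11 itself 9170 to 16385 per library.

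Other host genes of small nucleolar RNAs lay on the other side of control. Of 13 tested, 12 were lower in the α-synuclein group with a median difference of -0.46, 11 in the AKG group with -0.52 and 12 in the combined group with -0.35, and none passed the threshold. Zfas1, host of C/D small nucleolar RNAs, stood at 33.2 and 15.1 FPKM in control and at 10.7 to 16.5 in the treated libraries, with a difference of -0.86 ± 0.31 in the α-synuclein group. Epb41l4aos stood at 45.4 and 27.2 FPKM in control and at 14.8 to 25.8 in the treated libraries, with a difference of -0.70 ± 0.30. In both genes control library 1 was the highest of the 8. Snhg14, the long RNA of the Prader-Willi domain that is expressed in neurons, was the exception at 0.46 ± 0.20, and Snhg18 was at -0.0056 ± 0.24. The 3 medians were -0.17, -0.23 and -0.040 without control library 1, -0.71, -0.63 and -0.67 without control library 2, and -0.29, -0.28 and -0.29 with the length trend removed. The difference between Snhg11 and the other hosts was not tested.

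**Figure D3:**
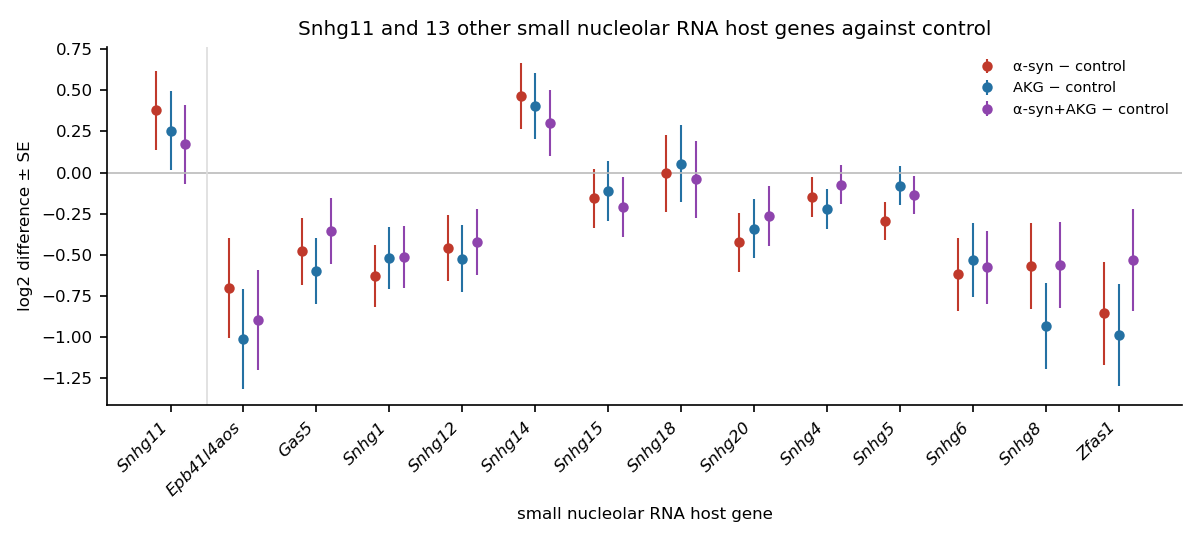
Log2 difference from control (vertical axis, log2(FPKM + 1) scale, with the standard error as a bar) of Snhg11 and 13 other small nucleolar RNA host genes in the α-synuclein (red), AKG (blue) and combined (purple) groups. Snhg11 and Snhg14 lie above 0 in all 3 groups, and most other hosts lie below.

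The differences of Peg13 turned on 1 control library. It stood at 55.8 and 89.7 FPKM in control, 94.2 and 94.1 in the α-synuclein group, 97.4 and 88.7 in the AKG group and 98.0 and 94.0 in the combined group. Without control library 1 the other 7 values lay within 1.11 times of each other. Against control it differed by 0.41 ± 0.21, 0.39 ± 0.21 and 0.43 ± 0.21 (limma adjusted p = 0.325, 0.342 and 0.375). Leaving out control library 1 gave 0.069, 0.051 and 0.097, and setting aside control library 2 gave 0.74, 0.73 and 0.77, which passed the threshold (limma adjusted p = 0.0110, 0.00960 and 0.00940), with control library 1 as the only control. In those fits 3380, 3392 and 2938 of 13738 genes also passed. Trappc9, the gene that contains Peg13 on the same strand, ranged only from 12.7 to 14.7 FPKM, and the ratio of Peg13 to Trappc9 was 4.33 in control library 1 and 6.38 to 7.04 in the others. Reads of unspliced Trappc9 RNA over Peg13 could not be told apart from Peg13.

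Of the 5 genes listed around Peg13 all were tested and 0 passed in any comparison. Ago2, an Argonaute protein of small RNA silencing, differed from control by 0.70 ± 0.20 in the α-synuclein and AKG groups, at 3.68 and 5.38 FPKM in the control libraries. Its treated libraries lay at 6.07 to 8.78. In the α-synuclein group the potassium channel gene Kcnk9 differed by 0.42 ± 0.21, the focal adhesion kinase gene Ptk2 by 0.082 ± 0.10 and the chromatin accessibility factor gene Chrac1 by -0.36 ± 0.23. The medians over the 5 genes were 0.10, 0.15 and 0.18 with α-synuclein, AKG and both. With the length trend removed their sign turned, to -0.090, -0.16 and -0.088, with 2, 1 and 2 genes higher. The AKG median was 0.069 without control library 1.

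Neat1, the paraspeckle scaffold, had another order of libraries. Its 1 row covers a gene model of 20771 bases and does not separate transcripts of the gene. How well the mRNA-seq kit captured each of those transcripts was not tested, so the level may not be that of the scaffold transcript. It stood at 4.58 and 3.74 FPKM in control, 3.44 and 3.26 in the α-synuclein group, 3.94 and 3.52 in the AKG group and 4.69 and 5.002 in the combined group. The α-synuclein libraries were the lowest of the 8 and the combined libraries the highest, with no overlap between these groups. The combined group at 4.85 ± 0.222 FPKM differed from the α-synuclein group at 3.35 ± 0.130 by 0.43 ± 0.12, with a 95% interval of 0.14 to 0.71. This had an unadjusted p of 0.00911 and did not pass over all genes (limma adjusted p = 1.0). Leaving out an α-synuclein or a combined library put the difference between 0.39 and 0.47. Leaving out a control or AKG library cannot change it, since the fit has 1 mean per group. In the same comparison Malat1, 22.04 kb away on the same strand, differed by -0.17 ± 0.40.

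Neat1 differed from control by -0.24 ± 0.12 with α-synuclein, -0.12 ± 0.12 with AKG and 0.18 ± 0.12 with both (limma adjusted p = 0.315, 0.569 and 0.448). The first 2 were -0.13 and -0.0061 without control library 1, and the last was 0.30. After removal of the length trend they were -0.70, -0.57 and -0.23, so the direction of the last depended on that step. Paraspeckle protein genes had no common direction: of 17 tested, 8 lay higher and 9 lower in the combined than in the α-synuclein group, with a median of -0.0039 beside 0.0060 over all tested genes. Against control 11, 9 and 9 of the 17 lay higher in the α-synuclein, AKG and combined groups, with medians of 0.034, 0.015 and 0.031, and 0 passed. These medians were below 0 without control library 1 (-0.031, -0.025 and -0.052) and with the length trend removed (-0.060, -0.092 and -0.038). The ends of the list in the α-synuclein group were Hnrnpa1 at -0.20 ± 0.11 and Nono, a core paraspeckle protein, at -0.14 ± 0.10, and Cpsf6 at 0.31 ± 0.17 and Smarca4, a chromatin remodelling ATPase, at 0.39 ± 0.17.

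Nuclear speckle protein genes, of the bodies where Malat1 gathers, were mixed against control as well. Of 14 tested, 9, 6 and 7 lay higher in the α-synuclein, AKG and combined groups, with medians of 0.084, -0.046 and 0.019, and 3 lay higher in the combined than in the α-synuclein group, with a median of -0.076. In that last comparison 6 lay higher without combined library 2, with a median of -0.0056. The medians against control were 0.020, -0.075 and -0.063 with the length trend removed, and 0.066, 0.022 and -0.027 without control library 1. The speckle scaffold gene Srrm2 stood at 8.96 and 13.9 FPKM in control and at 16.2 to 23.2 in the treated libraries, and differed by 0.84 ± 0.24 in the α-synuclein group (limma adjusted p = 0.294). Srrm1, a splicing coactivator, stood at 8.0 and 9.11 FPKM in control and at 10.6 to 13.5 in the treated libraries, with a difference of 0.49 ± 0.13. The splicing regulator Tra2b at -0.24 ± 0.11 and the splicing factor subunit U2af2 at -0.15 ± 0.11 were the lowest of the list.

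Kcnq1ot1, the silencing RNA of the Kcnq1 domain, had the lowest level per length of the 9 RNAs. It stood at 0.0445 and 0.0649 FPKM in control, 0.0768 and 0.0582 in the α-synuclein group, 0.0781 and 0.0755 in the AKG group and 0.118 and 0.0541 in the combined group, from 80 to 214 reads per library. Apart from control library 1, all values lay between those of the combined libraries. In a fit with no filter on low values its differences from control were 0.017, 0.030 and 0.042, each with a standard error of 0.039. Kcnq1 overlaps it on the opposite strand with 71 reads in all libraries together, and since no source used here gives the strand setting, reads of the 2 genes could not be told apart.

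Genes of the Kcnq1 domain lay mostly below control. Of 11 listed, 6 were tested, and 5 of the 6 lay lower in each of the α-synuclein, AKG and combined groups, with medians of -0.25, -0.25 and -0.21 and 0 passing. The growth inhibitor Cdkn1c, a maternally expressed gene of the domain, stood at 16.7 and 3.28 FPKM in control, 2.36 and 4.33 in the α-synuclein group, 4.52 and 7.56 in the AKG group and 2.22 and 12.9 in the combined group. Its highest libraries were the 2 with the highest choroid plexus sums, 8893 FPKM in control library 1 and 4926 in combined library 2, and the part of those cells in this was not tested. Its difference in the α-synuclein group was -1.04 ± 0.83. Slc22a18, a membrane transporter, differed by -0.43 ± 0.38 and the histone chaperone gene Nap1l4 by -0.18 ± 0.11, and the lipid-binding protein gene Osbpl5 was the 1 above control at 0.18 ± 0.15. Leaving out control library 1 left 5 of the genes above the filter, with medians of -0.028, -0.078 and -0.036. Removing the length trend made them -0.14, -0.15 and -0.084 over 6 genes.

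Counted over the 8 tested RNAs, none passed the threshold in any of the 5 comparisons (limma adjusted p under 0.05; voom on reads recovered from the FPKM also called none). Over all genes the share called was 0.0% in the α-synuclein group, 0.00729% in the AKG group (the gene Th) and 0.0% in the combined group against control, 0.0% in the combined against the α-synuclein group, and 0.0% for the interaction. At an unadjusted p under 0.05 there was 1 RNA in the α-synuclein group against control (Malat1, which was higher, beside 16.8% of all genes in both directions and 9.27% higher), 0 in the AKG group (17.7% of all genes, and 10.5% higher) and 0 in the combined group (13.9%, and 8.71% higher). There was 1 in the combined against the α-synuclein group (Neat1, which was higher, beside 1.36%, and 0.897% higher) and 1 for the interaction (Neat1, above 0, beside 7.28%, and 3.62% above 0). These counts depended on the processing. With the length trend removed they were 3, 2 and 1 RNAs against control, of which 1, 0 and 0 were higher. Of all 13716 genes 1731, 2059 and 1692 did so, with 932, 1099 and 917 higher. The combined against α-synuclein count was then 0 (224 genes). With library weights the α-synuclein count against control was 0 (1566 genes). That count was 2 with quantile scaling (2239 genes, 1349 higher) and 2 with voom (2501 genes, 1459 higher), all of them higher. A block that crossed the control libraries, added after seeing the data, gave 3, 3 and 1 RNAs against control, all higher. Of all genes 2791, 2795 and 2271 did so there, with 1542, 1675 and 1403 higher. By overlap of the libraries, 6 of the 8 lay above both controls in both α-synuclein libraries, where 26.3% of all genes did, and 2 lay below, where 27.6% did. With AKG 5 lay above (26.0% of all genes) and 0 below (26.4%), and with both treatments 3 above (21.3%) and 1 below (20.5%). Neat1 and Mirg lay above in the combined against the α-synuclein group (12.9%) and 0 lay below (11.4%). The 3 comparisons with control share its libraries and are not independent.

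**Figure D4:**
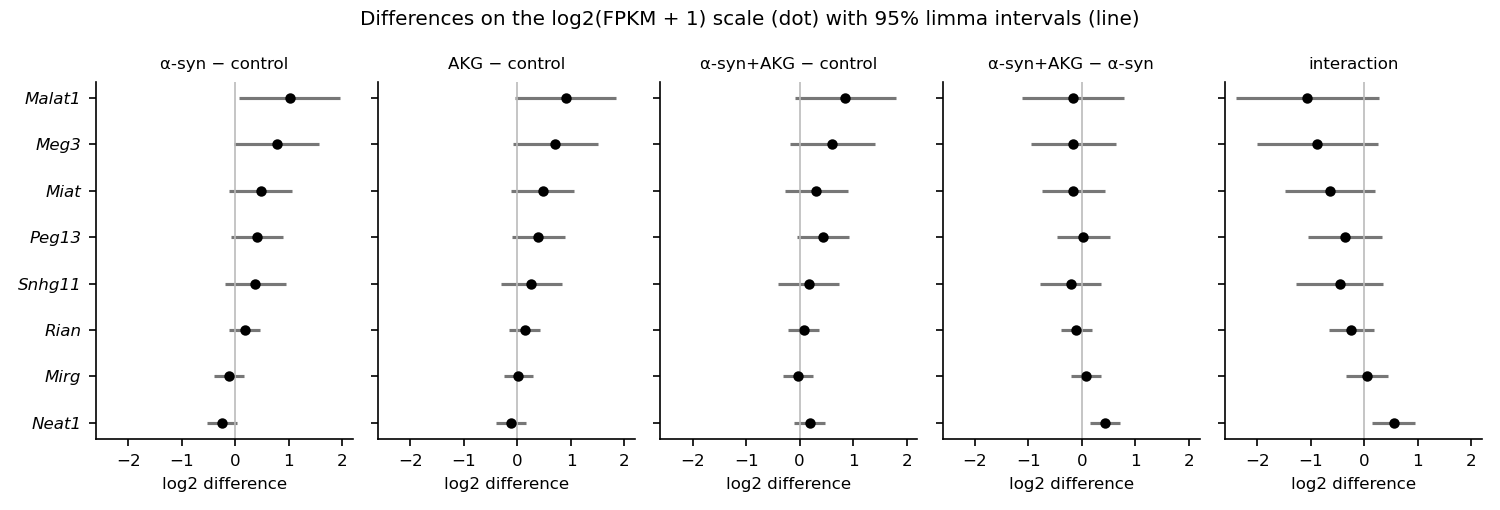
Log2 differences of the 8 tested RNAs (horizontal axis, log2(FPKM + 1) scale) in 4 comparisons and the interaction, with 95% limma intervals as lines. The intervals include 0 except for Malat1 in the α-synuclein group against control and Neat1 in the combined against the α-synuclein group and in the interaction, before adjustment over all genes.

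The median difference of the 8 RNAs was 0.39 in the α-synuclein, 0.32 in the AKG and 0.25 in the combined group against control, where the medians over all tested genes were -0.0087, -0.0098 and -0.0055. The same medians were 0.17, 0.11 and 0.092 without control library 1, 0.58, 0.52 and 0.40 without control library 2, and 0.20, 0.14 and 0.035 after removal of the length trend. Going from the α-synuclein to the combined group 5 of 8 lay lower, with a median of -0.13, but without combined library 2 all 8 lay higher, with a median of 0.15. Without it the combined minus control difference was 1.06 for Meg3, 0.63 for Miat and 0.53 for Snhg11. Combined library 2 was the lowest library for 5 of the 9 RNAs when control library 1 was set aside. The interaction (the AKG difference with the vector minus that without it) was -1.07 ± 0.56 for Malat1, -0.87 ± 0.47 for Meg3, -0.64 ± 0.35 for Miat and 0.55 ± 0.17 for Neat1 (limma adjusted p = 0.537, 0.538, 0.540 and 0.537). For Malat1, Meg3 and Miat it was -0.58, -0.42 and -0.32 without combined library 2, -0.72, -0.51 and -0.41 without control library 1 and -1.55, -1.33 and -0.96 without combined library 1. For Malat1 it was -0.69 without AKG library 1, and for Neat1 it was 1.03 with the length trend removed. The median interaction of the 8 RNAs was -0.41, and -0.21 without combined library 2. Other long noncoding RNAs of brain gave a median of 0.047, 0.064 and 0.11 over 15 tested genes against control, with 8, 9 and 12 of them higher. With the length trend removed the medians were 0.046, -0.013 and -0.048, with 8, 6 and 7 higher. In the α-synuclein group 1700020I14Rik at 0.60 ± 0.26 and Mir124a-1hg, a host of the neuronal microRNA miR-124, at 0.42 ± 0.25 were highest, and Pantr1 at -0.23 ± 0.14 and Mir22hg at -0.17 ± 0.11 lowest.

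The plot of profiles by library sets the RNAs side by side. On the log2 scale the profiles of Malat1 and Meg3, each centred on its mean, were 0.17 apart as a root-mean-square difference over the 8 libraries, and those of Malat1 and Neat1 0.62. Rian and Mirg, the least variable pair, were 0.13 apart. Meg3 lay 0.33 from Rian and 0.45 from Mirg, further than from Malat1 on another chromosome. This measure counts the width of a profile as well as its course. A flat profile therefore lies far from a wide one and near another flat one, whether or not their courses are alike. Rian, like Meg3, was lowest in control library 1 and highest in combined library 1. Mirg was lowest in α-synuclein library 1 and highest in AKG library 1. Outside the 9 RNAs the genes nearest to Meg3 were Slit1, an axon guidance ligand (0.069), and Trank1 (0.084). Those nearest to Malat1 were Cacna1b, a presynaptic calcium channel subunit (0.16), and Slit1 (0.16). Peg13 was nearest to Cadps, a protein of vesicle priming (0.022), and Adam23 (0.025), Neat1 to Tor2a (0.069) and Ptrhd1 (0.079), Miat to Fam120c (0.047) and Tro (0.069), Snhg11 to Eml5 (0.064) and Acvr2a (0.072), Rian to Pcgf5 (0.018) and Tbc1d2b (0.020), and Mirg to Mepce (0.031) and Gtf3c2 (0.032). Flat profiles have many near neighbours: 59.9% of the genes searched lay within 0.2 of Rian and 0.122% within 0.2 of Malat1.

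**Figure D5:**
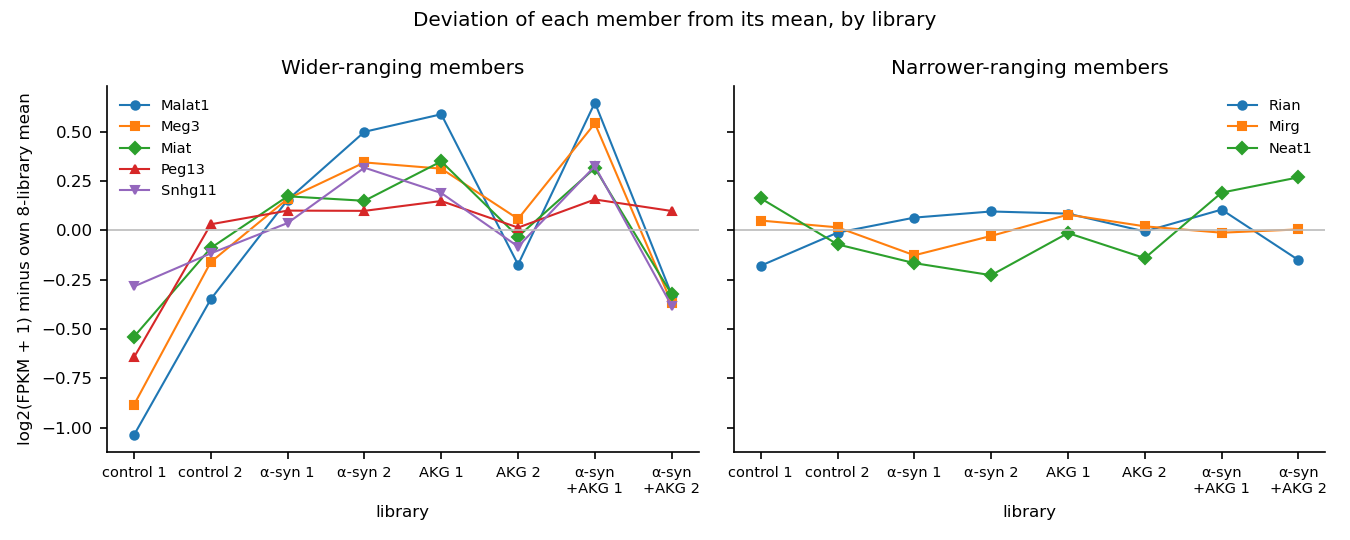
Deviation of each tested RNA from its own mean over 8 libraries (vertical axis, log2(FPKM + 1) scale) by library; lines only join the points of an RNA. Malat1, Meg3, Miat and Snhg11 are low in the control libraries and combined library 2 and high in combined library 1, while Rian and Mirg stay near 0 and Neat1 is highest in the combined group.

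Other measures moved with these libraries. The sum of 5 oligodendrocyte markers was 1716 FPKM in combined library 2 and 1611 in control library 2, where Malat1, Meg3 and Miat were lowest after control library 1, and 1002 to 1215 in the other 5 treated libraries. In control library 1 it was 1047. The choroid plexus sum was highest in control library 1 and combined library 2. The 5 astrocyte markers summed to 812 FPKM in control library 1 and 541 to 661 in the other 7. Gfap (156.7 FPKM, next highest 75.7 in control library 2) and Aldoc (539.9, next highest 485.0 in α-synuclein library 1) carried that excess. Aldh1l1 reached 21.6 there, barely more than the 21.5 of combined library 2. Slc1a3 (62.8) and Aqp4 (31.5) were not highest there, so the astrocyte set was not raised as a whole. The 4 red cell markers summed to 14.4 FPKM in control library 1 and to 170.35 to 442 in the other 7, and the mitochondrial share of reads was 6.86% there and 5.01% to 6.11% in the others. The part of these cell types and of RNA quality in the differences was not tested.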

How the data were processed

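RNA was measured by RNA-seq in 8 libraries, 2 in each of 4 groups. Column-purified RNA went into a SMARTer mRNA-seq library kit, per the labels' protocols. Builds named in the submitters' processing notes are GRCm38 and mm10. Of the aligner, the counter and the strand setting, no source used here gives any. What the authors deposited is a table with a FPKM value per gene and library, beside gene coordinates and lengths, per the file headers. Value times gene length gave whole reads for 100% of nonzero values (tolerance 0.01), so reads and depth could be recovered. The depth of 16544190.0 to 19125423 reads limits precision most for Mirg and Kcnq1ot1.

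The fit took the 13716 genes whose mean reached 1 FPKM. It used limma 3.58.1 in R 4.3.3 on log2(FPKM + 1), with 1 mean per group, eBayes with a trend and Benjamini-Hochberg adjustment over all of them (threshold 0.05). It had 4 residual degrees of freedom and was tested on simulated data with planted changes. The simulation gave all genes the same spread setting and held no outlying library and no length trend. It therefore does not show how the fit behaves with those features of these data. In fits without a library, the group left with 1 is assumed to vary like the others. The members, lists and tests were chosen with earlier results of these data known. By the naming rule all members are named and, of each list, the genes called and otherwise the 2 lowest and 2 highest, given here for the α-synuclein comparison. Dio3, Cdkn1c beyond that comparison and the Mir1188 row were named after their values were seen. Likeness is the smallest root-mean-square difference, passing over Gm and Rik genes and genes under 200 bases. The alternatives were no filter, a higher filter (5 FPKM), another pseudocount (0.1), quantile and median-of-ratios scaling, voom on recovered reads, the replicate number as a block, library weights, removal of the length trend (spline with 5 degrees of freedom) and leaving out each library. A crossed block was added after seeing the data. Promoter sequences in RefSeq (GRCm38.p6) matched 7 of the 9 RNAs. Tables were read with Python 3.11.15 and pandas 2.3.3.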

Additional observations from a re-analysis of the deposited data

Results flagged for a closer look

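Neat1 was picked out because, for each treatment, both libraries lay on one side of the reference mean without the other treatment and on the opposite side with it. On the log2(FPKM + 1) scale the AKG libraries lay at -0.059 and -0.19 from the control mean, while the combined libraries lay 0.39 and 0.47 above the α-synuclein mean. The α-synuclein libraries lay at -0.21 and -0.27 from the control mean, while the combined libraries lay 0.27 and 0.35 above the AKG mean. The AKG and control libraries overlapped, with AKG library 1 at 3.94 FPKM above control library 2 at 3.74, and the AKG minus control difference was -0.0061 without control library 1. The difference between the effects was 0.55 ± 0.17 and did not pass over all genes (limma adjusted p = 0.537). It is the value for which Neat1 was picked out, so its test adds no independent support. Neat1 rests on 1148 to 1892 reads per library.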

How the results depend on the processing

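No tested RNA was called under any alternative that kept all 8 libraries. Leaving out a library gave 0 to 1 called RNA in each comparison with control and 0 to 2 for the interaction. The calls came without control library 2, and were Peg13 in the 3 comparisons with control (0.74, 0.73 and 0.77 in the α-synuclein, AKG and combined groups) and Peg13 (-0.70) and Neat1 (0.67) in the interaction. Genes called over the whole table without a library were 0 to 3380 in the α-synuclein, 0 to 3392 in the AKG and 0 to 2938 in the combined group against control and 0 to 1377 for the interaction, with each upper end without control library 2, which leaves control library 1 alone. With all libraries, the single gene called in the AKG group became 12 with no filter, 2 with a pseudocount of 0.1 and 0 with the length trend removed, library weights, the replicate block or the crossed block. No filter gave 5 genes in the α-synuclein group, 4 in the combined group and 6 in the combined against the α-synuclein group, and a pseudocount of 0.1 gave 1 in the combined group.

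The replicate block called 0 RNAs and 0 genes in all 5 comparisons. Of the 6 pairs of groups, same-numbered libraries deviated together only in the AKG and combined groups (correlation across genes 0.34), and the other 5 correlations were -0.32 to -0.022. The numbers were therefore not taken to pair the samples.

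Directions reversed mostly for small differences, and the cause was not tested. With the length trend removed, Rian differed from control by -0.24, -0.28 and -0.31 in the α-synuclein, AKG and combined groups and by 0.21 in the interaction, Mirg by -0.15 in the AKG group, and Neat1 by -0.23 and Snhg11 by -0.023 in the combined group. Mirg in the AKG group was also -0.015 with quantile scaling and -4.0e-04 with voom, and Peg13 in the combined against the α-synuclein group -0.025 with quantile scaling. Without a library, the combined minus α-synuclein difference ran from -0.65 to 0.32 for Malat1, -0.62 to 0.29 for Meg3, -0.49 to 0.15 for Miat, -0.56 to 0.15 for Snhg11, -0.23 to 0.025 for Rian and -0.0014 to 0.057 for Peg13. The combined minus control difference ran from -0.010 to 0.63 for Miat, -0.055 to 0.20 for Rian and -0.18 to 0.53 for Snhg11, and the AKG minus control difference of Mirg from -0.012 to 0.047. Depth limits Mirg and Kcnq1ot1 most, with 174 to 224 and 80 to 214 reads per library.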
